A study of Mus musculus with 4 samples.

Results

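The effect of deleting Mir221 and Mir222 in adipocytes on the fat of mice under a high fat-high sucrose (HFHS) chow was read here from 2 of the 4 arrays of the series. These were the array of a HFHS AdipoKO mouse and that of a HFHS flox/y mouse. Every gene with an annotated symbol was compared between them. Of 22180 such genes, 12146 were above background on at least 1 of the HFHS arrays and 11167 on both, and the remaining 10034 were above background on neither and were left out. Both were male mice, C57BL/6J in the labels and C57BL/6JJcl in the methods, of 16 weeks of age that had been on HFHS chow from 5 weeks of age, and the RNA came from their epididymal white fat. In AdipoKO mice a Cre recombinase driven by the adiponectin promoter removes the floxed Mir221/222 alleles from adipocytes. Macrophages, vessels, stromal cells and other cells of the same fat pad keep both microRNA genes. Flox/y mice carry the same floxed alleles on their single X chromosome but no Cre. The other arrays came from an AdipoKO mouse and a flox/y mouse of the same age on standard (STD) chow, and their values are given beside the HFHS values for orientation. Groups were taken from the sample titles, descriptions and genotypes, because the source field of the labels names another microRNA line and does not match the chow of every sample. Each group is 1 mouse, so no difference on HFHS below has a replicate error, and no test between genotypes on HFHS chow was possible.

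MicroRNAs of this pair are short RNAs that bind messenger RNAs through the bases near their 5′ end, the seed, and lower the stability or translation of what they bind. Mir221 and Mir222 lie next to each other on the X chromosome and are transcribed together. White fat of obese mice holds enlarged adipocytes, more macrophages, which take up lipid from dying adipocytes, and more collagen, and its vessels are lined by endothelium and wrapped by smooth muscle cells and pericytes.

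The deleted microRNAs are shown first because the predicted targets described further on were listed by their shared seed. Sequences are those of RefSeq on GRCm38.p6, 5′ to 3′, and the seed, bases 2 to 8, is in capitals. The miR-221-3p arm lies at chrX:19146307-19146329 and the miR-222-3p arm at chrX:19146901-19146923, both on the minus strand. They are 23 bases long and identical in their first 8 bases, and they match at 11 positions in all when set side by side without gaps.
mmu-miR-221-3p: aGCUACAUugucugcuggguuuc
mmu-miR-222-3p: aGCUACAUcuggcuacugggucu

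The deletion itself could not be read from the arrays. Mir221 had a normalized expression value of 16.4 in HFHS AdipoKO and 13.3 in HFHS flox/y, and 12.5 in STD AdipoKO and 34.1 in STD flox/y. Mir222 had 16.9 in HFHS AdipoKO and 12.2 in HFHS flox/y, and 15.4 in STD AdipoKO and 48.1 in STD flox/y. All of these lay below background, taken as the average of the negative control probes of each array. The lowest probe set value above it was 52.8 on the HFHS AdipoKO array and 50.5 on the HFHS flox/y array. Expression values are on a linear scale, 2 to the power of the deposited log2 value, and folds where the dimmer array was below background are given as lower bounds against that lowest value. The tissue label held, as the adipocyte genes Adipoq, Plin1, Fabp4 and Cidec were between 1029 and 7806 on 3 arrays and between 861 and 7374 on the STD flox/y array. Of markers of other tissues, 1 of 15 epididymal, 1 of 10 testis, 6 of 15 skeletal muscle and 3 of 12 pancreatic genes were above background on at least 1 HFHS array. Gpx5 and Lcn5 of epididymis, Prm1 of sperm, Ckm and Mylpf of muscle and Cpa1 of pancreas were below background on all 4 arrays. The highest of those above it were the muscle actin gene Acta1, with 419 in HFHS AdipoKO and 411 in HFHS flox/y, and the sperm tail gene Odf1, with 1895 and 2035.

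The HFHS flox/y array stood apart before any genotype difference was read. It held transcripts of hepatocytes, the main cell type of liver, at levels that none of the other 3 arrays had. Of 33 genes in a list of hepatocyte markers, 29 were above background on the HFHS flox/y array, against 12 on the HFHS AdipoKO array, 13 on STD AdipoKO and 12 on STD flox/y. The summed value of the list was 8188 in HFHS AdipoKO and 21928 in HFHS flox/y, and 10056 in STD AdipoKO and 9887 in STD flox/y. Much of the sum outside HFHS flox/y was Cyp2e1, a cytochrome P450 with 6488 in HFHS AdipoKO, 5779 in HFHS flox/y, 7088 in STD AdipoKO and 7762 in STD flox/y. Because HFHS flox/y is the only HFHS control, it cannot be left out, and whatever is particular to that sample and an effect of the genotype cannot be told apart in any value below. In bulk tissue, fewer cells of a type and less RNA per cell cannot be told apart either.

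By count, more transcripts were lower than higher in HFHS AdipoKO, and part of this rested on genes below background in that mouse. Of 12146 genes, 44 (0.362%) were higher by 2-fold or more and 141 (1.16%) lower by as much, and at 1.5-fold 260 (2.14%) were higher and 366 (3.01%) lower. The median log2 difference, AdipoKO minus flox/y, was -0.01 with an SD over genes of 0.36, and 48.3% of the genes had a difference above 0. Just inside the 2-fold line lay Csf2rb2 (2.00-fold higher) and P2rx7 (2.00-fold lower), and just outside it Myl9 (1.99-fold higher) and Nova1 (1.99-fold lower). Of the 141 lower genes, 127 had their highest value of the 4 arrays in HFHS flox/y, and in 93 that array was at least 2-fold above each of the other 3. In 90 of the 141 the HFHS AdipoKO value was below background. With both arrays above background 51 genes were at least 2-fold lower and 43.3% of the genes past 2-fold were higher, with values below background set to the lowest value above it 92 were lower and 40 higher, and without the 93 genes 48 were lower. In contrast, HFHS AdipoKO was at least 2-fold below each of the other arrays in 9 of the 141. Of the 44 higher genes, HFHS flox/y was the lowest array in 30 and HFHS AdipoKO the highest in 31, and the value stood 2-fold clear of all other arrays in 8 and 6 of them. HFHS flox/y was the highest array for 29.5% and the lowest for 26.2% of all 12146 genes. These shares are no like comparison for the 141 and 44 genes, which were picked by the difference between the HFHS arrays. By that choice HFHS flox/y already lay above HFHS AdipoKO in each lower gene and below it in each higher one.

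**Figure D1:**
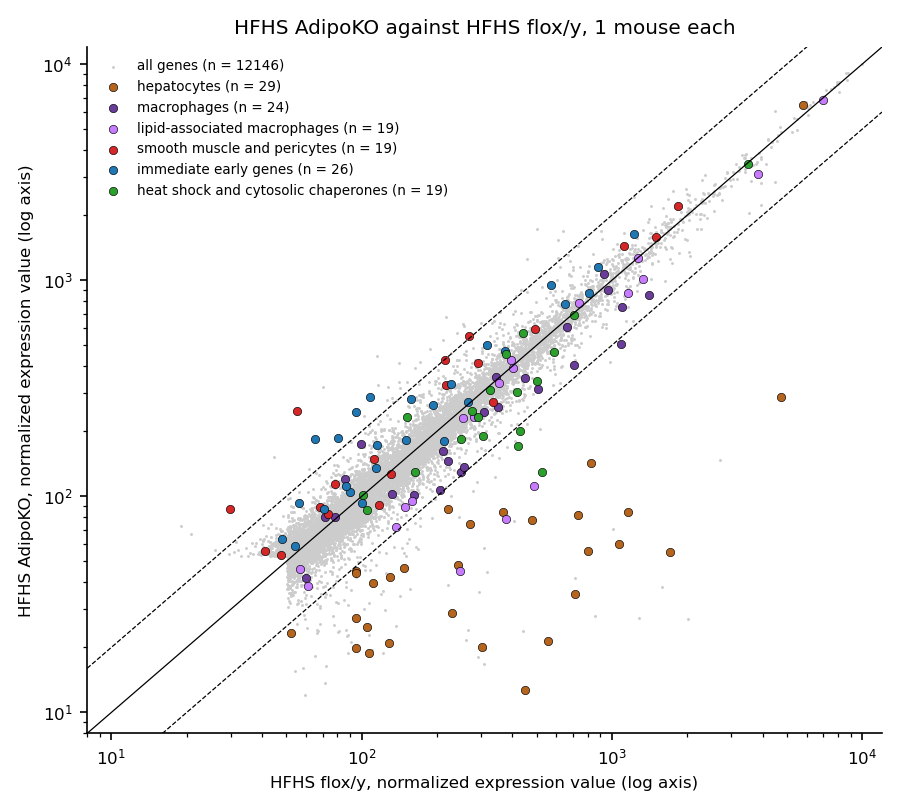
Normalized expression value of 12146 genes in the HFHS AdipoKO mouse (vertical log axis) against the HFHS flox/y mouse (horizontal log axis), with 6 gene lists in colour, the line of equality and dashed 2-fold lines. Hepatocyte genes lie far below the lower 2-fold line with the exception of Cyp2e1 at the upper right, while calponin Cnn1, at 248 against 55.2, is the smooth muscle gene farthest above the upper line.

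Hepatocyte transcripts gave the largest differences between the HFHS mice, all toward lower values in AdipoKO except 1. The median log2 difference of the 29 listed genes above background was -2.50 (0.29 on STD), 28 of them were at least 2-fold lower in HFHS AdipoKO (22 when values below background are set to the lowest value above it), and Cyp2e1 was 1.12-fold higher. Tat, the tyrosine aminotransferase of liver on chromosome 8 (109986078 to 109999804, GRCm38.p6), had 55.2 in HFHS AdipoKO and 1709.5 in HFHS flox/y, and 180.3 in STD AdipoKO and 141 in STD flox/y. It was thus 31.0-fold lower in HFHS AdipoKO. Albumin, Alb on chromosome 5 (90460870 to 90476602), had 288 in HFHS AdipoKO and 4739 in HFHS flox/y, and 913 in STD AdipoKO and 414 in STD flox/y, a 16.4-fold lower value. In both genes the HFHS flox/y mouse was high and the remaining 3 mice were low.
The same pattern held for products of many liver functions. Of the secreted proteins, the pheromone-binding urinary protein Mup20 had 27.0 in HFHS AdipoKO and 2016 in HFHS flox/y (at least 38.2-fold lower), and the protease inhibitors Mug1 and Serpina1c were at least 29.9-fold and at least 24.3-fold lower. The iron hormone hepcidin, Hamp, had 12.7 in HFHS AdipoKO and 451 in HFHS flox/y (at least 8.55-fold lower). All 3 fibrinogen chain genes were lower, Fgb at least 13.4-fold, Fgg at least 10.5-fold and Fga at least 5.73-fold. Apolipoprotein genes were lower as well, Apob 14.4-fold, Apoa1 8.94-fold and Apoa2 5.78-fold. Among enzymes, the urea cycle gene Cps1 was 17.7-fold lower, Mat1a, which makes S-adenosylmethionine in liver, 14.2-fold lower, and the fatty acid hydroxylase Cyp4a14 at least 8.34-fold lower. The gluconeogenic phosphatase G6pc had 50.8 in HFHS AdipoKO and 109 in HFHS flox/y (at least 2.07-fold lower), and was below background on both STD arrays, at 47.8 in AdipoKO and 38.7 in flox/y. Markers of Kupffer cells, the macrophages of liver, were chosen after the values were seen. Clec4f had 42.9 in HFHS AdipoKO and 47.4 in HFHS flox/y, Vsig4 21.1 and 28.0, and Cd5l 20.8 and 27.3, all below background, and Marco had 62.9 and 71.0.

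**Figure D2:**
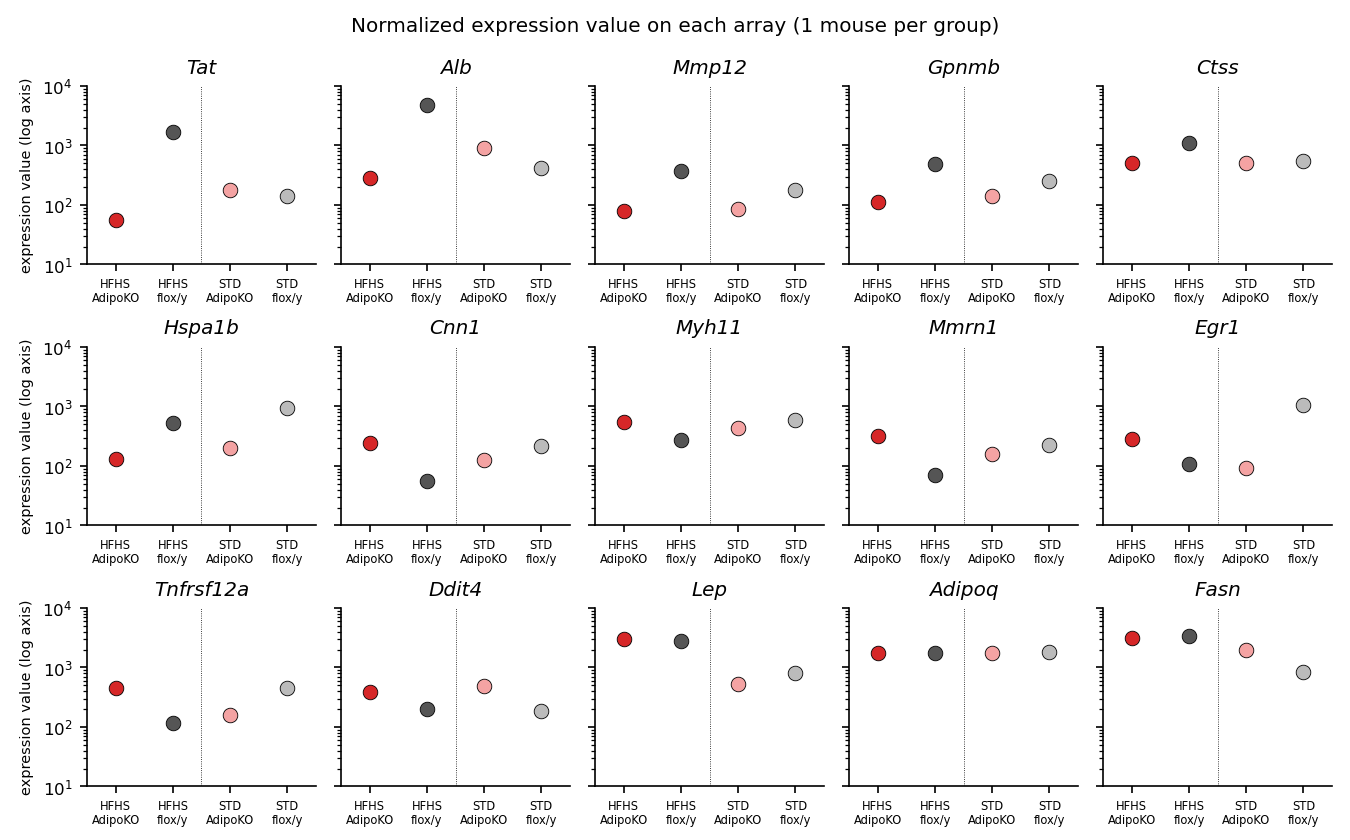
Normalized expression value (log axis) of 15 genes in each of the 4 mice, HFHS AdipoKO, HFHS flox/y, STD AdipoKO and STD flox/y, 1 point per mouse. Tat and Alb are high in the HFHS flox/y mouse alone, at 1709.5 and 4739, Hspa1b is lower in AdipoKO on each chow, Ddit4 is higher in AdipoKO on each chow, and Adipoq lies between 1729.6 and 1836 in all 4 mice.

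Macrophage transcripts were lower in HFHS AdipoKO. Of 24 macrophage genes above background, 9 were lower by 1.5-fold or more and 1 was higher by as much, against 3.01% and 2.14% of all genes, and their median log2 difference was -0.41 (-0.08 on STD). Ctss, the lysosomal protease cathepsin S, had 507 in HFHS AdipoKO and 1092 in HFHS flox/y, and 498 in STD AdipoKO and 559 in STD flox/y. It was 2.15-fold lower, and the value in HFHS AdipoKO was close to those of both STD mice. Adgre1, which encodes the F4/80 antigen, had 129.6 in HFHS AdipoKO and 249.5 in HFHS flox/y, and 140.3 in STD AdipoKO and 125 in STD flox/y. The pore-forming protein gene Mpeg1 was 1.93-fold lower, the phagocyte oxidase gene Cybb 1.88-fold, the folate receptor gene Folr2 1.73-fold, lysozyme Lyz2 1.64-fold and the CSF1 receptor gene Csf1r 1.60-fold. HFHS flox/y was the highest of the 4 arrays in 16 of the 24 genes, against 29.5% of all genes. HFHS AdipoKO was the lowest in 7 of the 24, against 23.2% of all genes. Other members lay close to 0, chosen here after their values were seen. The complement gene C1qb (899 in HFHS AdipoKO and 967 in HFHS flox/y), the integrin gene Itgam (355 and 345) and the mannose receptor gene Mrc1 (1069 and 934) were within 1.15-fold, and the endotoxin coreceptor gene Cd14 was 1.76-fold higher (175 and 99.0).
Within a list of lipid-associated macrophages, the cells that surround and clear dying adipocytes, 7 of 19 genes were lower by 1.5-fold or more (6 at the bounds). None was higher by as much. Of all genes, 3.01% were lower and 2.14% higher by 1.5-fold or more (297 and 236 of 12146 at the bounds). The median of the list was -0.32 (-0.15 on STD). The differences were uneven. Mmp12, the macrophage elastase on chromosome 9 (7344397 to 7360461), had 78.5 in HFHS AdipoKO and 378 in HFHS flox/y, and 85.6 in STD AdipoKO and 179 in STD flox/y. Gpnmb, a lysosomal glycoprotein on chromosome 6 (49036518 to 49058182), had 111 in HFHS AdipoKO and 489.7 in HFHS flox/y, and 143 in STD AdipoKO and 253 in STD flox/y. Atp6v0d2, a proton pump subunit of macrophages and osteoclasts, had 45.0 in HFHS AdipoKO and 246 in HFHS flox/y, and 45.9 in STD AdipoKO and 117 in STD flox/y. In these 3 genes the AdipoKO mouse was the lower one on each chow, and the values of both AdipoKO mice lay below those of both flox/y mice. The share of all genes with this order was not counted. Next came the integrin Itgax (CD11c) at 1.91-fold lower, the lipid receptor Trem2 at 1.67-fold and cathepsin K, Ctsk, at 1.66-fold, whereas Cd9 (428 in HFHS AdipoKO and 395 in HFHS flox/y) and Acp5 (786 and 739) were slightly higher.
Lysosome genes, which macrophages use heavily but every cell carries, had a median of -0.24 (0.06 on STD), with 4 of 24 above 0. Hexa, a subunit of beta-hexosaminidase, was 1.67-fold lower and the glucuronidase gene Gusb 1.55-fold lower, and the other 22 differed by less than 1.5-fold. Other leukocyte genes at least 2-fold lower, named after their values were seen, were Cd84 (97.4 in HFHS AdipoKO and 196 in HFHS flox/y), Myo1f (58.5 and 135) and P2rx7 (94.7 and 189.8). Il7r, the interleukin 7 receptor of lymphocytes, was 2.94-fold lower, at 57.3 in HFHS AdipoKO and 168 in HFHS flox/y. The remaining T and NK cell, B cell, neutrophil and mast cell markers were mostly below background, and those above it were within 1.2-fold.

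Collagen and matrix genes were lower in part. Of 36 above background, 7 were lower by 1.5-fold or more and 2 higher by as much, against 3.01% and 2.14% of all genes, with a median of -0.24 (0.00 on STD). Col1a1, which encodes a chain of type I collagen, had 650.4 in HFHS AdipoKO and 1138 in HFHS flox/y, and 542 in STD AdipoKO and 457 in STD flox/y. Fibronectin, Fn1, had 2236 in HFHS AdipoKO and 3943 in HFHS flox/y, and 1710.3 in STD AdipoKO and 1892 in STD flox/y. In both the HFHS flox/y mouse was the highest and HFHS AdipoKO stood between it and the STD mice. HFHS flox/y was the highest array in 26 of the 36 genes, against 29.5% of all genes. Fn1 is also made by liver, and the part of the hepatocyte transcripts in its value was not tested. Col14a1 was 1.80-fold lower, the gene of the proteoglycan lumican, Lum, 1.73-fold and Col3a1 1.65-fold. Chosen after their values were seen, decorin, Dcn (3620.1 in HFHS AdipoKO and 3935 in HFHS flox/y), biglycan, Bgn (3423 and 3661), and Sparc (3324 and 3225) were within 1.1-fold. The 2 members higher by more than 1.5-fold were thrombospondin 2, Thbs2, at 1535 in HFHS AdipoKO and 610.4 in HFHS flox/y (2.51-fold higher) and tenascin C, Tnc, at 203 and 121 (1.68-fold higher).
Among 19 markers of progenitors and fibroblasts, 3 were at least 1.5-fold lower and none higher, against 3.01% and 2.14% of all genes. The median of these markers was -0.13 (-0.06 on STD). The peptidase Dpp4, a marker of early progenitors, had 197 in HFHS AdipoKO and 352 in HFHS flox/y, the complement regulator Cd55 211 and 343, and the matrix gene Efemp1 1295 and 2048. Pdgfra, the receptor that defines these cells, was within 1.1-fold (528 and 571). The matrix protease Adamts5 (417 in HFHS AdipoKO and 984 in HFHS flox/y) and the aminopeptidase Anpep (204 and 517), named after their values were seen, were 2.36-fold and 2.53-fold lower.

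**Figure D3:**
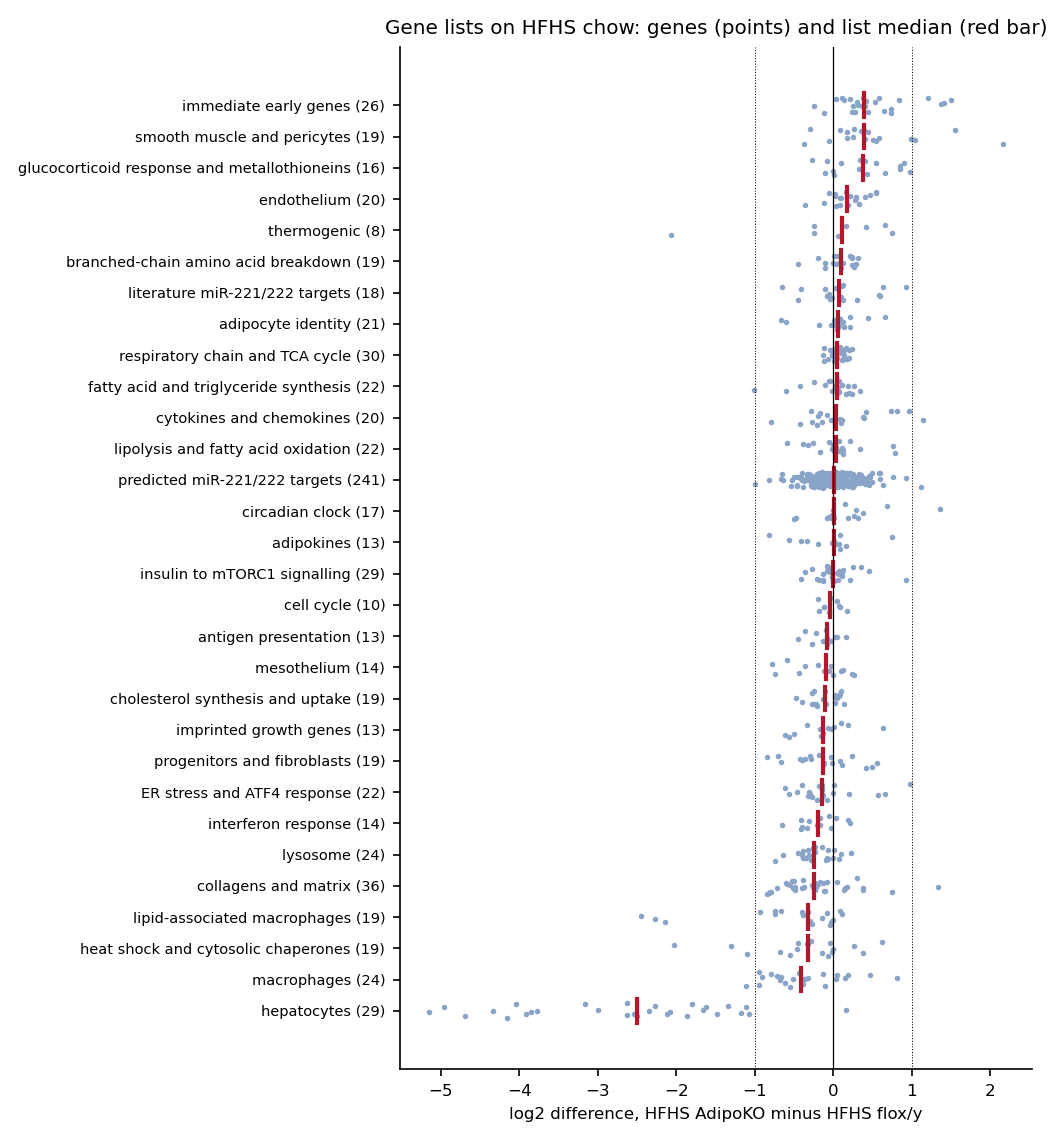
Log2 difference, HFHS AdipoKO minus HFHS flox/y, of the genes above background (points) in each gene list with at least 8 such genes, with the list median as a red bar, dotted lines at 2-fold and the number of genes in brackets. Medians run between -2.50 for hepatocytes and 0.39 for immediate early genes and smooth muscle, and most lists of adipocyte metabolism lie at 0.

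Smooth muscle genes were higher in HFHS AdipoKO. Of 19 above background, 5 were higher by 1.5-fold or more and none lower by as much, against 2.14% and 3.01% of all genes, with a median of 0.39 (-0.21 on STD) and 16 above 0. Cnn1, calponin of smooth muscle on chromosome 9 (22099221 to 22109221), had 248 in HFHS AdipoKO and 55.2 in HFHS flox/y, and 126 in STD AdipoKO and 216 in STD flox/y. It was 4.49-fold higher, the second largest positive difference of all genes. Myh11, the smooth muscle myosin heavy chain, had 553 in HFHS AdipoKO and 268 in HFHS flox/y, and 441 in STD AdipoKO and 582 in STD flox/y. For Cnn1 and Myh11 it was the HFHS flox/y mouse that was low, while HFHS AdipoKO lay near STD flox/y. The myosin light chain gene Myl9 was 1.99-fold higher, the actin-binding gene Tagln had 326 in HFHS AdipoKO and 217 in HFHS flox/y, and the enteric actin gene Actg2 was at least 1.72-fold higher (87.0 in HFHS AdipoKO and 29.8 in HFHS flox/y). Acta2, the alpha actin that is also made by pericytes and activated fibroblasts, was within 1.1-fold (1591 and 1495), and the pericyte gene Rgs5 had 2198 and 1843. Transcripts of the microRNA genes Mir143 and Mir145a, which lie in 1 cluster and are abundant in smooth muscle, were named after their values were seen. Mir145a had 72.6 in HFHS AdipoKO and a value below background in HFHS flox/y (at least 1.44-fold higher), and Mir143 had 128 and 65.5 (1.96-fold higher).
The promoter of Myl9 is printed because it carries a CArG box, the motif bound by serum response factor with its myocardin cofactors, which is in capitals. It covers 194 bases before the outermost annotated start of the gene, at chr2:156775214-156775407 on the plus strand of GRCm38.p6. A search of both strands found a CArG box in the 250 bases before an annotated start for 2 of 16 smooth muscle genes with a promoter in the table and for 2 of 21 immediate early genes, against 1.62% of 27025 genes. A match in a promoter is a description of its letters and says nothing on binding.
Myl9: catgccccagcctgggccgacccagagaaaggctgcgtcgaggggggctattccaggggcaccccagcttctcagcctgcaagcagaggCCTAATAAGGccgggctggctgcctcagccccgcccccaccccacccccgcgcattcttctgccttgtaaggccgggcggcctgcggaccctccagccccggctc

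Most endothelial genes had slightly higher values in HFHS AdipoKO. Of 20, none differed by 1.5-fold, and 17 had a difference above 0 (48.3% of all genes), with a median of 0.18 (-0.07 on STD). Pecam1, the CD31 gene, had 1189 in HFHS AdipoKO and 944 in HFHS flox/y, the cadherin gene Cdh5 2466 and 2032, von Willebrand factor, Vwf, 223 and 153, and the fenestral diaphragm gene Plvap 399 and 273. Differences ran between -0.35 and 0.54, and the lowest was that of the apelin receptor gene Aplnr, with 102 in HFHS AdipoKO and 129.8 in HFHS flox/y. HFHS flox/y was the lowest array in 10 of the 20 and HFHS AdipoKO the highest in 10, against 26.2% and 21.7% of all genes. Mmrn1, which encodes multimerin 1 of platelets and endothelium and lies on chromosome 6 (60944317 to 60989378), showed the largest positive difference of all genes. It had 322 in HFHS AdipoKO and 69.8 in HFHS flox/y, and 159 in STD AdipoKO and 224 in STD flox/y (4.62-fold higher). Selp, the adhesion receptor P-selectin, had 416 in HFHS AdipoKO and 141 in HFHS flox/y, and 91.5 in STD AdipoKO and 129 in STD flox/y, so that here the HFHS AdipoKO mouse was the high one. The endothelial transcription factor gene Sox7 was 2.52-fold higher (321 and 128) and the prostaglandin transporter gene Slco2a1 2.38-fold higher (571 and 239.7). Of 5 lymphatic genes above background, Mmrn1, Reln (63.8 in HFHS AdipoKO and 39.2, below background, in HFHS flox/y) and the VEGF-C receptor gene Flt4 (202 and 133) passed 1.5-fold by their measured values, while Lyve1 (911 and 932) and Pdpn (309.5 and 331) were within 1.1-fold.

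Immediate early genes, whose transcription starts soon after a stimulus without new protein, were higher in HFHS AdipoKO and lower in STD AdipoKO. On HFHS, 9 of 26 were higher by 1.5-fold or more and none lower by as much, against 2.14% and 3.01% of all genes, with a median of 0.39 and 24 above 0, whereas the median on STD was -1.33 and 1 was above 0. Egr1, a zinc finger transcription factor, had 287 in HFHS AdipoKO and 108 in HFHS flox/y, and 91.9 in STD AdipoKO and 1044 in STD flox/y. Fosb, a subunit of AP-1, had 185 in HFHS AdipoKO and 65.3 in HFHS flox/y, and 69.4 in STD AdipoKO and 193 in STD flox/y. The stress response gene Ier3 was 2.59-fold higher, the nuclear receptor genes Nr4a3 and Nr4a1 2.32-fold and 1.79-fold, and Zfp36, which encodes an RNA decay factor, 1.66-fold. The STD flox/y mouse was the high one for Egr1, Ier3, Nr4a1 and Zfp36, while Fosb was high in HFHS AdipoKO and STD flox/y alike. Such genes also respond to how a tissue is taken, of which no measure was held, and its part in these values was not tested.
Genes induced by glucocorticoids, with the metallothioneins, had a median of 0.38 (-0.09 on STD). At least 1.5-fold higher were 5 of 16, against 2.14% of all genes. The cell cycle inhibitor gene Cdkn1a had 1313 in HFHS AdipoKO and 665 in HFHS flox/y, the receptor feedback gene Errfi1 1696 and 908, the transcription factor gene Klf9 1227 and 679, the co-chaperone gene Fkbp5 471 and 262, and the kinase gene Sgk1 489 and 308. Other genes induced by the hormone did not share this, as Tsc22d3 had 299.5 in HFHS AdipoKO and 360.4 in HFHS flox/y and Per1 490.3 and 515. Among 17 clock genes the median was 0.01. The haem-sensing repressor gene Nr1d1 had 482 in HFHS AdipoKO and 188 in HFHS flox/y (2.57-fold higher), while the clock-controlled transcription factor gene Dbp (125 and 176) and the period gene Per3 (99.4 and 138) were lower.

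Most heat shock genes had lower values in AdipoKO on each chow, as 4 of 19 had a difference above 0 on HFHS and 1 on STD. Of 19 genes of heat shock and cytosolic chaperones, 4 were lower and 1 higher by 1.5-fold or more on HFHS, against 3.01% and 2.14% of all genes, with medians of -0.32 on HFHS and -0.56 on STD. Hspa1b, an inducible Hsp70 gene, had 129 in HFHS AdipoKO and 525 in HFHS flox/y, and 198 in STD AdipoKO and 961 in STD flox/y. Hspa1a, its near-identical neighbour, had 171 in HFHS AdipoKO and 421 in HFHS flox/y, and 192 in STD AdipoKO and 803 in STD flox/y. Probes could read both Hsp70 copies, so these are not separate results. Hsph1, an Hsp110 gene at another locus, had 199.7 in HFHS AdipoKO and 428 in HFHS flox/y, and 179.8 in STD AdipoKO and 698 in STD flox/y. In all 3 the values of both AdipoKO mice lay below those of both flox/y mice. How many of all genes had this order was not counted. Dnajb1, an Hsp40 gene, had 234 in HFHS AdipoKO and 152 in HFHS flox/y, and 128 in STD AdipoKO and 574 in STD flox/y. The constitutive Hspa8 was within 1.1-fold on HFHS (3462 and 3495).
The 250 bases before the start of Hspa1b are printed because this gene had the largest difference of the list. They lie at chr17:34959239-34959488 on the minus strand of GRCm38.p6. A heat shock element, of the form GAANNTTC or TTCNNGAA and searched on both strands with overlapping matches kept, is in capitals. The window of Hspa1a was identical to it at 247 of 250 positions. Hsph1 also held an element in the 250 bases before an annotated start, but 162 of these bases, the element among them, lie inside the gene by its outermost annotated start. In such windows an element was found in 8 of 16 genes of the list with a promoter in the table, against 14.5% of 27025 genes, and in 20 of 107 genes that were at least 2-fold lower.
Hspa1b: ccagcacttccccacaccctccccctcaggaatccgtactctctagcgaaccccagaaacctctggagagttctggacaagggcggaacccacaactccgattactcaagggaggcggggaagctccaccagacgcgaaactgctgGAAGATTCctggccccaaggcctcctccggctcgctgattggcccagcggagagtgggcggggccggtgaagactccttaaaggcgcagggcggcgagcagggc

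**Figure D4:**
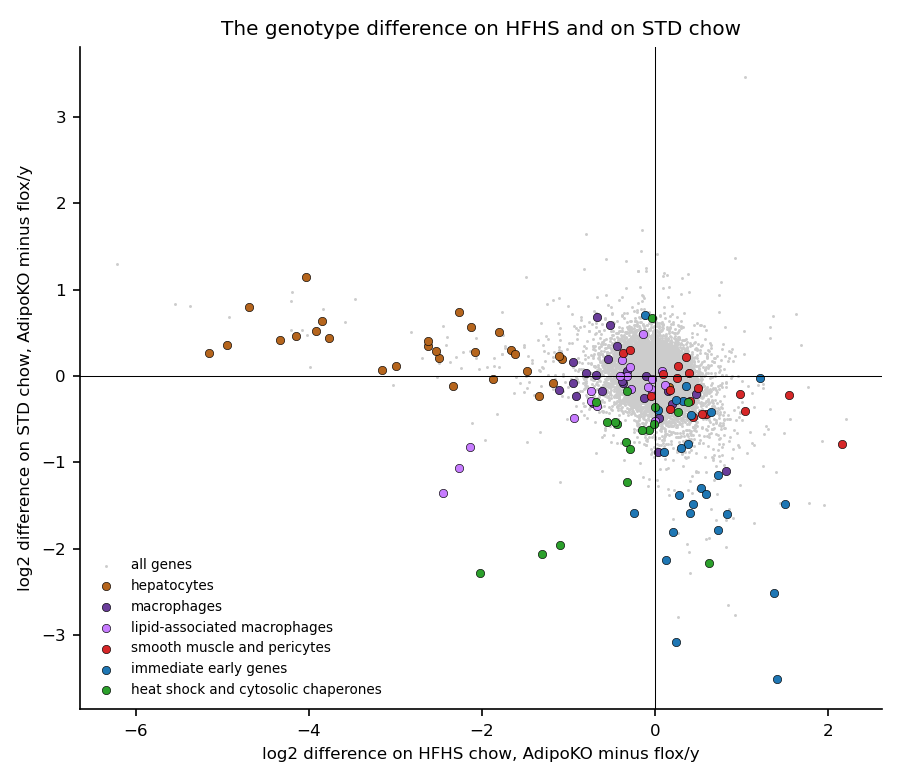
Log2 difference, AdipoKO minus flox/y, on HFHS chow (horizontal axis) and on STD chow (vertical axis) for 12146 genes above background on at least 1 HFHS array, with 6 gene lists in colour. Immediate early genes lie to the lower right (medians 0.39 on HFHS and -1.33 on STD), Hspa1b, Hspa1a and Hsph1 to the lower left, and hepatocyte genes to the left, with 24 of 29 above 0 on STD.

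The genotype differences on the 2 chows, which share no array, were set side by side. Across the 12146 genes they had a Pearson correlation of -0.25 and a Spearman correlation of -0.21. This is a description across genes, which are not replicates, and whether the 4 arrays were normalized together is not known. Of the 44 genes at least 2-fold higher on HFHS, 36 had a lower value in AdipoKO on STD, and 9 of them by 2-fold or more. On STD, 0.232% of 11194 genes above background were higher and 0.724% lower by 2-fold or more, 1.42% were higher and 2.74% lower by 1.5-fold or more, and 51.5% were above 0. Only Mid1, a ubiquitin ligase of microtubules, was at least 2-fold higher on both, with 897 in HFHS AdipoKO and 434 in HFHS flox/y, and 538 in STD AdipoKO and 48.9 in STD flox/y. The share of all 12146 genes with a lower value on STD was 48.0%.
Several of the largest positive differences followed the immediate early genes in this. Tnfrsf12a, the receptor of the cytokine TWEAK, had 446 in HFHS AdipoKO and 115 in HFHS flox/y, and 157 in STD AdipoKO and 445 in STD flox/y. The heparan sulfate proteoglycan gene Sdc4 had 1730.0 in HFHS AdipoKO and 502 in HFHS flox/y, and 553 in STD AdipoKO and 1536 in STD flox/y. The galactosyltransferase gene B4galt1 had 1249 in HFHS AdipoKO and 456 in HFHS flox/y, and 464 in STD AdipoKO and 1286 in STD flox/y. In each of these the HFHS AdipoKO mouse and the STD flox/y mouse were the high ones and the other two were low. A different order was seen for Il1r1, the interleukin 1 receptor, which was highest in HFHS AdipoKO, with 1693 in HFHS AdipoKO and 640.4 in HFHS flox/y, and 300.4 in STD AdipoKO and 650.5 in STD flox/y. The stress gene Gadd45g was higher in AdipoKO on each chow (673 in HFHS AdipoKO and 217 in HFHS flox/y, 917 in STD AdipoKO and 558 in STD flox/y), as was the small heat shock protein gene Hspb7 (532 and 212, and 112 and 75.2). Other genes more than 2-fold higher were the protease Adamts1 (2.49-fold), the mitochondrial carrier Slc25a30 (2.44-fold), the zinc and iron transporter Slc39a14 (2.40-fold), the retinal dehydrogenase Aldh1a3 (2.39-fold), the AMP deaminase Ampd3 (2.38-fold), the hormone stanniocalcin 1, Stc1 (2.22-fold), and lubricin, Prg4 (2.21-fold).

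By list medians, adipocyte identity and lipid metabolism differed little in HFHS AdipoKO. Of 21 adipocyte identity genes, 1 (4.76%) was higher and 2 (9.52%) were lower by 1.5-fold or more, against 2.14% and 3.01% of all genes. The median of the list was 0.06 (-0.02 on STD). Adiponectin, Adipoq, had 1767 in HFHS AdipoKO and 1729.6 in HFHS flox/y, the fatty acid carrier gene Fabp4 7806 and 7691, the lipid droplet gene Cidec 6697 and 6341, and leptin, Lep, 2986 and 2821. Pparg, the nuclear receptor that drives adipocyte differentiation, had 1319 in HFHS AdipoKO and 837 in HFHS flox/y, and 1239 in STD AdipoKO and 1528 in STD flox/y. It was 1.58-fold higher, and the HFHS flox/y mouse was the low one. Pck1, the enzyme that supplies glycerol for triglycerides in fat, was 1.58-fold lower (2846 in HFHS AdipoKO and 4501 in HFHS flox/y), and Dgat2, which makes triglycerides, 1.51-fold lower (1346 and 2035). On STD, Pck1 had 5753 in AdipoKO and 5259 in flox/y, and Dgat2 had 632 and 588. For Pck1 the HFHS AdipoKO mouse was thus the lowest and both STD mice lay above HFHS flox/y, while for Dgat2 HFHS flox/y was the highest. Pck1 and Dgat2 are also expressed by hepatocytes, and the part of the hepatocyte transcripts in them was not tested. Among 13 adipokine genes the median was 0.01, with the vessel peptide gene Apln 1.77-fold lower and the activin antagonist gene Fst 1.69-fold higher.
Fatty acid and triglyceride synthesis showed a median of 0.05 over 22 genes (0.14 on STD), those of cholesterol synthesis and uptake -0.11 over 19 (0.16 on STD), and those of lipolysis and fatty acid oxidation 0.03 over 22 (0.02 on STD). By 1.5-fold or more, 9.09% of the fatty acid and triglyceride genes were lower and none higher, against 3.01% and 2.14% of all genes. Of the lipolysis and oxidation genes, 9.09% were higher and 4.55% lower by as much. No gene of the cholesterol list differed by as much. The fatty acid synthase gene Fasn had 3173 in HFHS AdipoKO and 3410.1 in HFHS flox/y, and 1975 in STD AdipoKO and 828 in STD flox/y, so that its genotype difference was seen on STD alone. The desaturase gene Fads2 was the only one of the synthesis genes past 2-fold (124 in HFHS AdipoKO and 250.4 in HFHS flox/y, 2.02-fold lower). Abhd5, the activator of the lipase ATGL, was 1.73-fold higher and the uncoupling protein gene Ucp3 1.69-fold higher, and Cpt1a, which admits fatty acids to mitochondria, had 298 in HFHS AdipoKO and 447 in HFHS flox/y. The lipases Pnpla2 (5121 and 4689) and Lipe (487 and 421) were within 1.2-fold. Of 30 respiratory chain and TCA cycle genes, 22 were above 0 on HFHS and 26 on STD, against 48.3% and 51.8% of all genes. On HFHS all lay between -0.13 and 0.24, with a median of 0.05 (0.08 on STD). The 19 genes of branched-chain amino acid breakdown had a median of 0.10. Of 13 thermogenic genes, 8 were above background, with a median of 0.11. Of these 8, 2 were higher and 1 lower by 1.5-fold or more, against 2.14% and 3.01% of all genes. The transcription factor gene Tbx1 had 89.4 in HFHS AdipoKO and 53.0 in HFHS flox/y, and the hormone gene Fgf21 115 and 72.7. Ucp1 had 18.6 in HFHS AdipoKO and 18.5 in HFHS flox/y and Cidea 39.4 and 33.1, all below background, and the elongase gene Elovl3 was at least 2.36-fold lower (29.7 and 124). On STD, Fads2 had 135 in AdipoKO and 108 in flox/y, Cpt1a 277 and 245, and Elovl3 33.6 and 24.8. Each of these was thus highest in HFHS flox/y, and the part of the hepatocyte transcripts in them was not tested.

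Ddit4, a predicted target of the shared seed and an inhibitor of the growth kinase complex mTORC1, was higher in AdipoKO. It lies on chromosome 10 (59949675 to 59951770). It had 384 in HFHS AdipoKO and 202 in HFHS flox/y, and 483 in STD AdipoKO and 187 in STD flox/y. Both AdipoKO mice were thus above both flox/y mice, an order not counted over all genes. The study picked Ddit4 from these arrays by looking for predicted targets higher in AdipoKO on both chows. Its higher value on each chow is therefore no separate result. In the study's RT-qPCR of HFHS fat, the rise of Ddit4 mRNA in AdipoKO was not statistically significant. On its western blots of HFHS fat, DDIT4 protein was significantly higher in AdipoKO. In its luciferase assay in cultured cells, both microRNAs significantly lowered a reporter with the untranslated region of Ddit4. A reporter with a mutated seed site was hardly affected. The other genes between insulin and mTORC1 hardly differed on HFHS. Ddit4 was the only one of 29 past 1.5-fold, and their median was 0.00 (0.10 on STD). The kinase gene Mtor had 314 in HFHS AdipoKO and 299.6 in HFHS flox/y, the complex inhibitor gene Tsc2 356 and 343, Akt1 316 and 304, and Akt2 556 and 529. The largest of the rest were the insulin signalling subunit gene Pik3r1 (947 in HFHS AdipoKO and 692 in HFHS flox/y) and the sestrin gene Sesn3 (212 and 282).
On HFHS chow the predicted targets of the shared seed lay with the other genes. Of 302 predicted targets matched to a gene here, 241 were above background, 125 of them had a difference above 0, and their median was 0.01 (-0.09 on STD), beside -0.01 for all genes. At least 1.5-fold higher were 7, and at least 1.5-fold lower were 5, which as shares of 241 lie near the 2.14% and 3.01% of all genes. The higher ones were Ddit4, Foxp2 (56.3 in HFHS AdipoKO and 25.9 in HFHS flox/y, at least 1.12-fold), the ADP-ribosyltransferase gene Tiparp (629 and 371), the growth inhibitor gene Cdkn1c (99.1 and 64.0), Ppp2r2a (156 and 103), Caprin2 (127 and 84.2) and Fos (174 and 116). Except for Ddit4 and Caprin2, these had their lower STD value in AdipoKO. The lower ones were the splicing factor gene Nova1 (106 in HFHS AdipoKO and 210.5 in HFHS flox/y), the sodium pump subunit gene Atp1b1 (133 and 234), Plcl2 (52.5 and 83.1), Trps1 (107 and 168) and Snx29 (59.9 and 93.0). In a list of 18 targets known from the literature the median was 0.07 (-0.07 on STD). By 1.5-fold or more 4 (Ddit4, Cdkn1c, Fos and Ppp2r2a) were higher and 1 (Trps1) was lower. As shares of the list these are 22.2% and 5.56%, against 2.14% and 3.01% of all genes. All 5 are also in the predicted list above, so this is no separate result. The cell cycle inhibitor gene Cdkn1b, a well known target, had 105 in HFHS AdipoKO and 139 in HFHS flox/y, the receptor gene Kit 114 and 117, and the protease inhibitor genes Timp2 and Timp3 1256 and 1709, and 1562 and 1261.

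**Figure D5:**
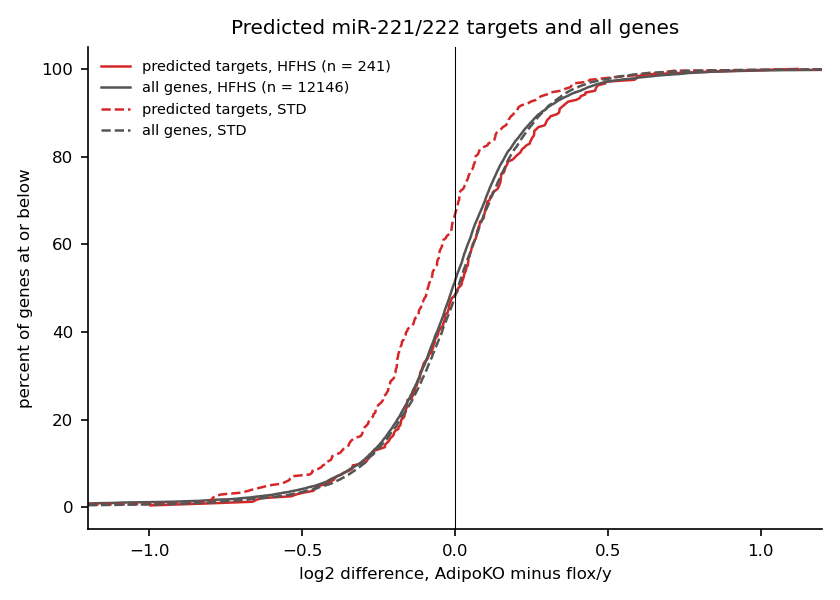
Percent of genes at or below each log2 difference, AdipoKO minus flox/y, for 241 predicted miR-221/222 targets (red) and 12146 genes (grey), all above background on at least 1 HFHS array, on HFHS chow (solid) and on STD chow (dashed). On HFHS the curves of targets and all genes overlie each other (medians 0.01 and -0.01), and on STD that of the targets lies to the left of all genes (medians -0.09 and 0.01).

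Cytokine and chemokine genes were split in HFHS AdipoKO. Their median was 0.03 over 20 genes (-0.23 on STD). By 1.5-fold or more 4 (20%) were higher and 1 (5%) was lower, against 2.14% and 3.01% of all genes. The lower one, Ccl8, passed only through a value below background in HFHS AdipoKO. The monocyte attractant gene Ccl2 had 280.4 in HFHS AdipoKO and 127 in HFHS flox/y, and 97.5 in STD AdipoKO and 318 in STD flox/y, and the neighbouring gene Ccl7 had 228 and 129, and 88.3 and 279.6. For both chemokines the STD flox/y mouse was highest and the STD AdipoKO mouse lowest. Lipocalin 2, Lcn2, was 1.95-fold higher (332 in HFHS AdipoKO and 170.3 in HFHS flox/y), and Ptgs2, the inducible cyclooxygenase gene, 1.66-fold higher. Il6, Tnf, Il1b and Ifng were below background in both HFHS mice. Of 22 genes of ER stress and the ATF4 response, 17 were not above 0 and the median was -0.14. The chaperone gene Creld2 was 1.53-fold lower (289 and 443), while Fgf21, named above, was 1.59-fold higher. Xbp1, a transcription factor of the unfolded protein response, was 1.97-fold higher (1445 and 735). On STD, Xbp1 was lower in AdipoKO, with 846 in AdipoKO and 1492 in flox/y.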

How the data were processed

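Total RNA of epididymal fat from 1 mouse per group was read by a service company on arrays of the type GeneChip Mouse Gene 2.0 ST. For each of 4 arrays the authors deposited log2 values, already normalized, of 41345 probe sets, with medians between 5.39 and 5.42. Background correction, normalization and summarization are not given in the sources used here, and how they bear on small differences is therefore unknown. Arrays have no read depth, and low values are limited by the background, taken as the average of its negative control probes in the heads of the study's expression tables. Between 39.6% and 44.9% of the probe sets were at or above it.

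By the platform annotation 23521 probe sets had 1 gene symbol, 1820 with several stayed unnamed, and 16004 had none here. A gene was represented by its brightest probe set over the 4 arrays, and 21098 of 22180 genes had a single probe set. Log2 differences were AdipoKO minus flox/y. Where the dimmer array was below background, folds were computed against its lowest probe set value above background. Coordinates, microRNAs and promoters were taken from RefSeq tables of GRCm38.p6.

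Members and gene lists were chosen with earlier results of these data known, and the motifs after the values were seen. Named were up to 30 genes with the largest differences in each direction, up to 6 members per list, defining markers, genes measured by the study and predicted targets past 1.5-fold. Other genes were named after their values were seen, which includes Cyp2e1, Csf2rb2, Lyz2, Col3a1, Cd9, Acp5, Rgs5, Tsc22d3, Per1, Hspa8, Mid1, Cdkn1b and Timp3. The predicted targets were the study's list made with target prediction databases. With 1 array per group no test, error or p-value was computed, and lists were described by counts and medians. Alternatives were other scalings, filters, thresholds and probe set summaries. A list median was taken as moved where it shifted by 0.1 or more on the log2 scale, and one under 0.2 in size was given no direction, limits also set after values were seen. The steps were tested on simulated data. Software was matplotlib 3.10.9, numpy 2.4.6 and pandas 2.3.3 under Python 3.11.15.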

Additional observations from a re-analysis of the deposited data

Results flagged for a closer look

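For 4 gene lists the median genotype difference had opposite signs on the chows, and the difference between chows was not tested, with 1 mouse per group. Immediate early genes had a median log2 difference, AdipoKO minus flox/y, of 0.39 on HFHS and -1.33 on STD over 26 genes. Smooth muscle and pericyte genes had 0.39 on HFHS and -0.21 on STD over 19 genes, and lymphatic genes 0.60 and -0.21 over 5 genes. Hepatocyte genes had -2.50 on HFHS and 0.29 on STD over 29 genes. Gene by gene, 79 of 12146 were at least 1.5-fold higher in AdipoKO on HFHS and at least 1.5-fold lower on STD, and 35 showed the reverse. On both chows alike, 7 genes were higher and 14 lower by 1.5-fold or more.

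Probe sets that carry no gene symbol, or several, enter none of the comparisons above. Of 6588 such probe sets above background on at least 1 HFHS array, 82 were higher and 88 lower by 2-fold or more in HFHS AdipoKO than in HFHS flox/y. Samples were not examined for outliers, as each group holds 1 mouse.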

How the results depend on the processing

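No count, list median over 0.2 in size or named difference past 1.5-fold turned its direction under the alternatives that were run. Of 141 genes at least 2-fold lower in HFHS AdipoKO, 51 were left where the AdipoKO array or both arrays had to be above background. With values below background set to the lowest value above it, 92 were left, and 48 without genes whose HFHS flox/y value was at least 2-fold above each other array, both chosen after seeing the data. The share of higher genes among those past 2-fold was 23.8% as reported and 46.3% with the AdipoKO array above background. Among genes past 2-fold, that filter can take out only lower ones. The same holds for leaving out genes at least 2-fold above each other array in HFHS flox/y. That the count of lower genes fell under these settings was thus fixed in advance. At 1.5-fold 260 genes were higher and 366 lower. The hepatocyte median was -2.63 with a background filter of 2 times, -2.27 with no filter, -2.89 with both arrays above background and -2.12 at the bounds. The lymphatic median was 0.40 with no filter and 0.34 at the bounds. Thermogenic genes had 0.0084 with no filter and 0.30 with both arrays above background, and cell cycle genes 0.061 with both above background. The filter of 2 times gave 0.15 for clock genes, as did the mean of probe sets, 0.38 for cytokines and chemokines, and -0.31 for interferon genes. T and NK cell genes had 0.016 with no filter. The other 210 list medians and 16 counts over settings stayed close to the reported values, as did 860 of 861 values of named genes. The exception was the fatty acid transporter gene Slc27a2, at -1.92 with the mean of probe sets. No replicate could be left out, and the cause of these shifts was not tested. No paired analysis was possible because each group holds 1 mouse and the groups share no replicate numbers.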

Other observations

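Mesothelial genes, which mark the surface layer of the fat pad, were mostly lowest in HFHS AdipoKO. Of 14 genes above background, 10 had their lowest value of the 4 arrays there, against 23.2% of all genes. The protease inhibitor gene Slpi was 1.72-fold lower (143 in HFHS AdipoKO and 245 in HFHS flox/y). Bnc1 and Muc16 passed 1.5-fold only by values below background in HFHS AdipoKO, at 33.7 in HFHS AdipoKO and 50.8 in HFHS flox/y for Bnc1 and 33.3 and 55.5 for Muc16. Upk3b, a uroplakin of mesothelium, had 436 in HFHS AdipoKO and 559 in HFHS flox/y, and 647 in STD AdipoKO and 790 in STD flox/y. Gpm6a, a membrane glycoprotein, had 255 in HFHS AdipoKO and 345 in HFHS flox/y, and 458 in STD AdipoKO and 582 in STD flox/y. In both genes the AdipoKO mouse was the lower one on each chow. The medians of the list were -0.09 on HFHS and -0.26 on STD.

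Interferon response genes had a median of -0.19 on HFHS (-0.13 on STD), with 3 of 14 above 0. Bst2, which tethers viruses to the cell surface, was 1.58-fold lower (73.0 in HFHS AdipoKO and 115 in HFHS flox/y), and no other member differed by 1.5-fold. Antigen presentation genes had a median of -0.08 over 13 genes, with the peptide transporter gene Tap1 1.36-fold lower. Among 13 imprinted genes the median was -0.12. The noncoding RNA gene Rian had 92.5 in HFHS AdipoKO and 141 in HFHS flox/y, and 49.0 in STD AdipoKO and 105 in STD flox/y, so that it was lower in AdipoKO on each chow. The proliferation marker Mki67 had 206 in HFHS AdipoKO and 194 in HFHS flox/y, and 93.2 in STD AdipoKO and 85.0 in STD flox/y, and the 10 cell cycle genes had a median of -0.04 on HFHS. Markers of skeletal muscle, pancreas, epididymis, testis, erythroid cells and nerve were mostly below background, and the members of these lists above it differed by less than 1.4-fold between the HFHS mice.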
